A study of Mus musculus with 6 samples.

Results

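Lung mesenchymal stromal cells (LMSCs) cultured from mice with lung metastases were compared with LMSCs cultured from mice at the stage before metastases. The members were all genes whose mean over the 4 libraries of these stages reached 1 FPKM (fragments per kilobase of gene and megafragment sequenced). They were 10320 of the 34745 genes in the deposited table, and the 4 libraries were 4 of the 6 in the series. The mice carried the MMTV-PyMT transgene, in which a mammary tumor virus promoter, active mainly in mammary epithelium, drives polyoma middle T antigen, so that mammary tumors form and spread to the lung. The labels call the groups E-LMSCs (mice aged 6 to 7 weeks), L-LMSCs (9 to 10 weeks) and M-LMSCs (13 to 14 weeks), and the study calls the same stages A-LMSCs (adenoma), PM-LMSCs (pre-metastatic) and M-LMSCs (metastatic). The study's names are used from here on, and the study's methods give other ages for the earlier stages. All cells were at passage 3, grown in DMEM with fetal bovine serum from enzyme-digested lung, and selected as adherent cells lacking CD45, the surface protein shared by blood-derived cells. Age and stage cannot be told apart in this design, and a further library per stage that the study describes was not analysed here.

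Mesenchymal stromal cells are connective tissue cells that adhere to plastic, lay down collagen and other matrix, and secrete growth factors, their binding proteins and chemokines. In an organ that receives tumor cells, such cells can remodel the matrix and recruit myeloid cells, and complement proteins made locally can act on receptors of those cells. Macrophages also adhere to plastic, and they express the C1q chains of complement, lysosomal enzymes and immune receptor adaptors.

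The question was what is added to the expression program once metastases are present. The FPKM of all genes summed to 265670 and 271410 in the PM-LMSC libraries and to 258250 and 264910 in the M-LMSC libraries. Fragment totals were estimated from the spacing of the lowest values, in megafragments, at 15.2 and 16.4 in PM-LMSCs, 17.0 and 17.1 in M-LMSCs, and 21.5 and 18.0 in A-LMSCs. Across genes, which are not independent replicates, log2 values correlated at 0.985 between the PM-LMSC libraries, at 0.977 between the M-LMSC libraries, and at 0.969 to 0.982 between the stages. Each M-LMSC library correlated more highly with the PM-LMSC library of its own number (0.981 and 0.982) than with the other M-LMSC library, and less highly with the PM-LMSC library of the other number (0.969 and 0.975).

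The label was checked against 11 surface markers of mesenchymal stromal cells, and all 11 passed the minimum level. Itgb1, the integrin beta chain used to identify such cells, made up 73.1% of their summed FPKM. The sums were 552.5 and 453 FPKM in PM-LMSCs, and in M-LMSCs 612 and 411 FPKM, and their median log2 fold change was -0.03, beside -0.0013 over all genes tested. Of 17 fibroblast genes in the table, 14 were tested, and their sums were 2343 and 2907 FPKM before metastases and 2716 and 3406 FPKM in M-LMSCs. Both stages thus carried markers of the label, but the sum of the surface markers mainly follows Itgb1, and several others were low. Nt5e, an ectonucleotidase, measured 2.89 and 2.35 FPKM in PM-LMSCs, and in M-LMSCs 2.73 and 3.68 FPKM. Ly6a encodes Sca1, by which the study identified LMSCs in the lung. It measured 2.53 and 2.10 FPKM in PM-LMSCs, and in M-LMSCs 5.74 and 3.95 FPKM. Endothelial cells were nearly absent, since 11 of 14 markers were below 1 FPKM in all 6 libraries and Pecam1, the defining adhesion protein, was at most 0.0337 FPKM.

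In limma's fit with 1 mean per stage, 3 of 10320 genes differed between M-LMSCs and PM-LMSCs at an adjusted p under 0.05 (0.0291% of those tested). The 2 that rose (0.0194%) were Ftl2-ps and Pianp, and the gene that fell (0.00969%) was Gapdh. With the replicate number as a block, 43 genes were called (0.417%), of which 28 rose (0.271%) and 15 fell (0.145%). For those of the 43 not called without the block, limma's adjusted p without it ran from 0.0542 (Slc7a11) to 0.404 (C1qtnf3). In 26 of the 43, both M-LMSC libraries lay above the other 4 libraries, and in 13 both lay below them, so these levels were reached in neither earlier stage. In the remaining genes the M-LMSC libraries did not both lie beyond the others, and the PM-LMSC libraries lay above the other 4 in 2 (Sprr1a and Ap3m1) and below them in 2 (Pianp and Eno2). PM-LMSCs also lay at the opposite extreme in part of the genes counted before, such as Gapdh and Sfrp1. Genes that rose included adaptors and receptors of myeloid cells, secreted proteins such as Sfrp1 and Igfbp2, and the cystine transporter Slc7a11. Genes that fell included the skeletal actin gene Acta1, the proteoglycan gene Cspg4 and the RNA-binding protein gene Ybx3. The block count was sensitive to the libraries: it was 5 without A-LMSC replicate 1 or replicate 2, 16 and 3 without PM-LMSC replicate 1 and replicate 2, and 419 and 364 without M-LMSC replicate 1 and replicate 2. Without the block the count was 22 and 26 when M-LMSC replicate 1 and replicate 2 were left out. Ftl2-ps and Gapdh passed in 13 of 13 alternatives with the block, Pianp in 11 of 12, and Sfrp1 and Tyrobp in 7 of 13. Each of the other 38 passed in 3 to 6. These numbers include fits with 1 library at a stage, and median centring kept all 43. All 43 kept their direction in every alternative, but none overlapped between PM-LMSCs and M-LMSCs, so a turn of sign was hardly possible.

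**Figure D1:**
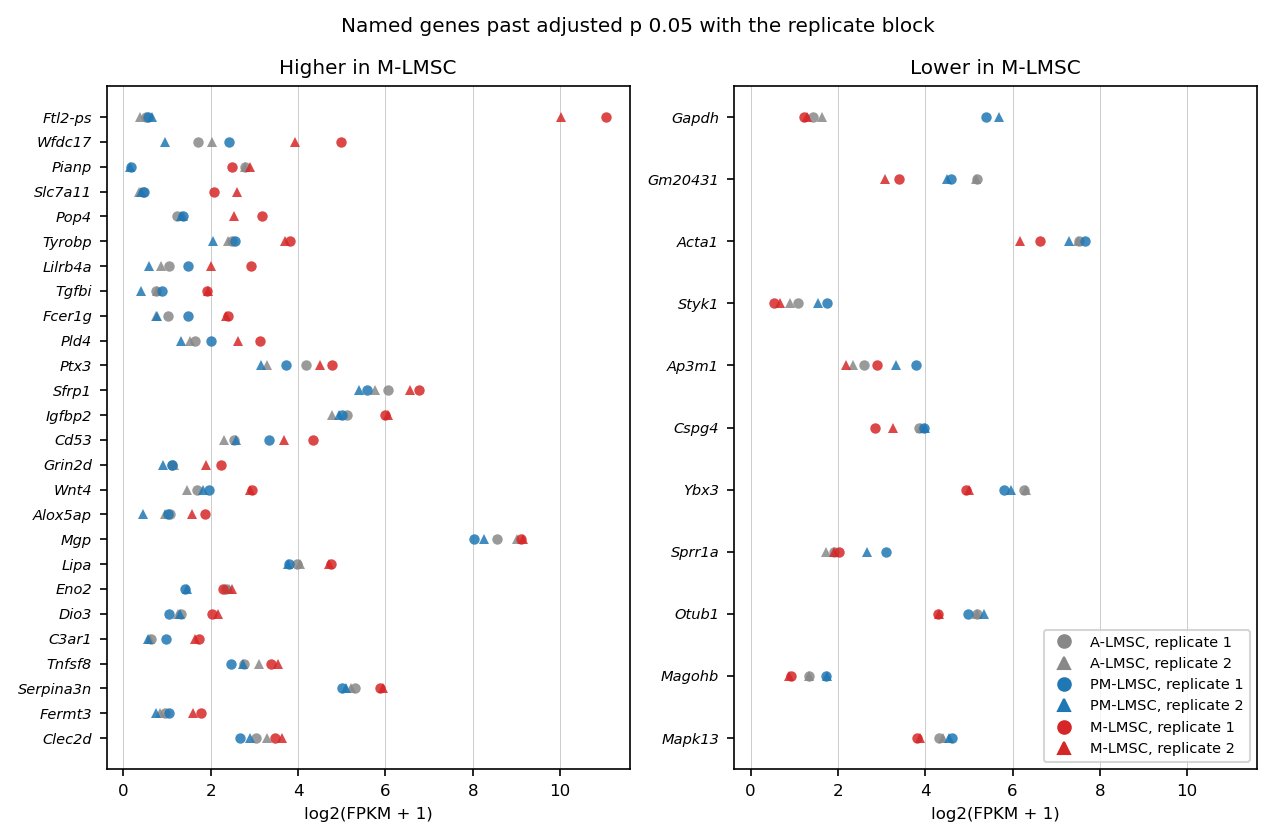
Log2(FPKM + 1) of the genes named in the text that were called with the replicate block, 26 higher (left) and 11 lower (right) in M-LMSCs. Each point is a library, coloured by stage and shaped by replicate number, and in most genes the M-LMSC points lie beyond the other 4.

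Without any threshold on p, both M-LMSC libraries exceeded both of the PM stage in 1859 genes (18%) and were below both in 1703 genes (16.5%). They lay above the other 4 libraries in 1242 genes (12%) and below them in 1182 (11.5%). The PM-LMSC libraries lay above the other 4 in 330 genes (3.2%) and below them in 432 (4.19%). At an unadjusted p under 0.05 with the block, 736 genes were higher in M-LMSCs (7.13%) and 922 were lower (8.93%). Every count of list members at that p below is to be read beside these shares.

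Genes of blood-derived cells moved furthest as a group. Of 20 haematopoietic markers, 13 were tested, and 3 of the 13 rose with the block (Tyrobp, Fcer1g and Cd53), beside 0.271% of all genes. All 13 had both M-LMSC libraries above the other 4, beside 12% of all genes. The median log2 fold change of the 13 was 0.95, and it lay between 0.72 and 1.55 over 15 alternatives. The filter on the mean favours genes that are high in M-LMSCs, and members such as Adgre1, Itgam and Plek passed it through their M-LMSC values. With no filter on low values the median was 0.81. Over all 20 markers, 16 had both M-LMSC libraries above both PM-LMSC libraries, beside 18% of all genes tested. The summed level of the 20 was 148 and 139 FPKM in A-LMSCs, then 191 and 88.2 in PM-LMSCs and 454 and 326 in M-LMSCs. Both M-LMSC sums exceeded the 4 others, and the PM-LMSC sums spread by more than the A-LMSC sums.

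Lyz2, the lysozyme of macrophages and neutrophils, was the most abundant marker and made up 77.4% of the summed level. It measured 147 and 60.6 FPKM in PM-LMSCs against 362 and 249.7 in M-LMSCs. The stages did not overlap, but the adjusted p with the block was 0.0528 and missed the threshold. Tyrobp (ENSMUSG00000030579, chromosome 7 of GRCm38 from 30413760 to 30417585) encodes the adaptor DAP12 of activating immune receptors. It measured 4.92 and 3.12 FPKM in PM-LMSCs, and in M-LMSCs 13.1 and 12.1 FPKM. The M-LMSC libraries lay close together and far above the others, with a log2 fold change of 1.46 (standard error 0.14, adjusted p = 0.0226 with the block and 0.0974 without it).

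Fcer1g, the gamma chain shared by Fc receptors, measured 1.81 and 0.706 FPKM before metastases and 4.29 and 4.09 FPKM in M-LMSCs (a log2 fold change of 1.25, adjusted p = 0.0476 with the block). Cd53, a leukocyte tetraspanin, measured 9.13 and 4.99 FPKM in PM-LMSCs against 19.4 and 11.8 in M-LMSCs (1.06, adjusted p = 0.0477 with the block). In both genes replicate 1 was the higher PM-LMSC library and each M-LMSC library exceeded it. Adgre1, which encodes the macrophage surface protein F4/80, went from 0.694 and 0.227 FPKM to 2.09 and 1.52 FPKM, and Itgam, the alpha chain of complement receptor 3 (the higher of 2 entries of that name), from 0.488 and 0.0349 FPKM to 2.45 and 1.46 FPKM. Neither was called. Ptprc, which encodes CD45 itself, was between 0.0254 and 0.0987 FPKM in the 6 libraries, and its stages overlapped. Ly6g of neutrophils was listed at 0 in all 6 libraries, and Cd3e of T cells at 0 in 4.

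Outside that list, other called genes are known from macrophages and other blood-derived cells, and they were picked out after their values were seen. Wfdc17, a secreted protein of activated macrophages, measured 4.32 and 0.945 FPKM in PM-LMSCs, and in M-LMSCs 30.6 and 14.2 FPKM. Its log2 fold change was 2.77 (standard error 0.37, adjusted p = 0.0476 with the block and 0.215 without it). Its M-LMSC libraries exceeded all others. Lilrb4a, an inhibitory receptor, rose by a log2 value of 1.43, Pld4, an exonuclease of lysosomes, by 1.22, and Alox5ap, which serves leukotriene synthesis, by 0.98. Fermt3, the kindlin of blood cells, rose by 0.78, and Lipa, the lysosomal acid lipase found in many cell types, by 0.96. Alox5ap and Fermt3 had PM-LMSC means of 0.700 and 0.877 FPKM and passed the filter through their M-LMSC values. Exons of Lilrb4a overlap those of Lilr4b, so its level depends on how shared reads were counted. In bulk RNA, more cells of a type and more RNA per cell cannot be told apart, and the part of blood-derived cells in the results for other genes was not tested.

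Complement genes came next by median. Of 25 listed, 17 were tested, and 1 rose with the block and 0 fell, where 0.271% of all genes rose and 0.145% fell. Their median log2 fold change was 0.47 (0.30 to 0.89 over 15 alternatives, the highest without M-LMSC replicate 1). Both M-LMSC libraries exceeded both of the PM stage in 8 of the 17 and were below them in 1, beside 18% and 16.5% of all genes. The called gene was C3ar1, the receptor for the C3a fragment, at 0.959 and 0.468 FPKM in PM-LMSCs against 2.30 and 2.14 in M-LMSCs (0.93, adjusted p = 0.0483 with the block). C3ar1 passed the filter through M-LMSCs alone, since it was below 1 FPKM in the 4 other libraries, and with no filter on low values the median of the list was 0.44. The precursor of its ligand, C3, had M-LMSC libraries beyond both PM-LMSC libraries, with log2 differences of 1.05 and 1.36 within the replicate pairs and an adjusted p of 0.0601 with the block.

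The genes of the C1q chains, which recognise antibody and dying cells, had larger fold changes. C1qa measured 6.18 and 1.33 FPKM in PM-LMSCs against 19.4 and 19.9 FPKM in M-LMSCs. C1qb measured 2.55 and 1.16 FPKM against 11.8 and 12.1 FPKM, and C1qc 1.76 and 0.439 FPKM against 6.30 and 6.53 FPKM. In each, the M-LMSC libraries were nearly equal and exceeded all 4 others, while the PM-LMSC libraries differed widely, and the adjusted p with the block was 0.117, 0.0627 and 0.0529. Cfp, the properdin that stabilises the alternative convertase, measured 1.73 and 0.772 FPKM in PM-LMSCs, and in M-LMSCs 4.90 and 4.05 FPKM (adjusted p = 0.0534 with the block). C1s1, the C1s protease, had the opposite order, at 16.1 and 18.6 FPKM for the PM stage against 8.94 and 10.2 FPKM in M-LMSCs (adjusted p = 0.0648 with the block). Its level peaked in PM-LMSCs, because A-LMSCs were lowest, with 3.87 FPKM in replicate 1 and 3.25 FPKM in replicate 2. C1s1 has a near-identical copy, C1s2. Cfd, C7 and Vtn were listed at 0 in all 6 libraries.

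Of 22 genes of type 2 cytokine signaling and STAT6, 11 were tested and 0 were called. At an unadjusted p under 0.05 with the block in limma, 4 were higher and 0 lower, against 7.13% and 8.93% of all genes. The receptor and the transcription factor of this pathway showed little difference. Il4ra measured 33.8 and 42.7 FPKM in PM-LMSCs against 33.3 and 54.2 in M-LMSCs. Stat6 measured 17.9 and 22.4 FPKM in PM-LMSCs, and in M-LMSCs 18.9 and 22.4 FPKM. The stages overlapped in both, and the sign of the log2 fold change turned without PM-LMSC replicate 1 (-0.01 for Il4ra and -0.12 for Stat6) and without M-LMSC replicate 2 (-0.19 and -0.08). Il13ra1, the chain that binds interleukin 13, measured 4.10 and 3.88 FPKM before metastases and 4.53 and 6.49 FPKM in M-LMSCs (a log2 fold change of 0.37, adjusted p = 0.290 with the block). Il13 was listed at 0 in all 6 libraries and Il4 did not pass 0.222 FPKM. Il33, an alarmin of stromal cells, was high in M-LMSC replicate 2 alone, at 3.67 FPKM beside 0.495 FPKM in replicate 1.

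Most genes for chemokines and neutrophil attractants were low in these cells. Of 18 neutrophil genes, 13 were below 1 FPKM in all 6 libraries, 4 were tested, 0 were called, and 1 was higher at an unadjusted p under 0.05 with the block. That gene was Saa3, an acute-phase protein, at 15.7 and 6.99 FPKM in PM-LMSCs, and in M-LMSCs 19.9 and 48.2 FPKM (adjusted p = 0.213 with the block). Csf1, the macrophage growth factor, measured 348 and 341 FPKM in PM-LMSCs but 378 and 173.5 FPKM in M-LMSCs, so its stages overlapped. Of 13 other chemokine genes, 8 were tested and 0 were called, with 4 higher and 1 lower at an unadjusted p under 0.05 and a median log2 fold change of 0.25. Ccl9, a macrophage chemokine, measured 1.55 and 0.820 FPKM before metastases and 4.73 and 8.17 FPKM in M-LMSCs (1.75, adjusted p = 0.0525 with the block). Ccl2 hardly differed, at 27.3 and 19.2 FPKM against 28.6 and 19.2 FPKM.

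Several genes for secreted proteins rose, and they are grouped here by role without a list of their own. Macrophages also make some of these proteins, such as Ptx3 and Tgfbi, and the cell type in which they rose was not tested. Sfrp1 (ENSMUSG00000031548, chromosome 8 from 23411502 to 23449632) encodes a secreted Wnt antagonist. It measured 65.6 and 53.1 FPKM in A-LMSCs, then 46.7 and 41.1 in PM-LMSCs and 108.1 and 93.3 in M-LMSCs. Both M-LMSC libraries exceeded all others, the pairs differed by 1.19 and 1.16, and the log2 fold change was 1.18 (standard error 0.10, adjusted p = 0.0167 with the block and 0.0974 without it). Igfbp2 (ENSMUSG00000039323, chromosome 1 from 72824503 to 72852474) binds insulin-like growth factors. It measured 33.7 and 26.5 FPKM in A-LMSCs, then 31.0 and 29.4 in PM-LMSCs and 62.4 and 65.3 in M-LMSCs. The earlier stages shared a level and M-LMSCs stood above it (1.06, standard error 0.12, adjusted p = 0.0405 with the block).

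Serpina3n, a secreted protease inhibitor, measured 31.1 and 33.5 FPKM in PM-LMSCs against 58.0 and 60.8 in M-LMSCs (0.86, adjusted p = 0.0405 with the block). Ptx3, a soluble pattern recognition protein, measured 12.2 and 7.86 FPKM in PM-LMSCs, and in M-LMSCs 26.3 and 21.6 FPKM. Its log2 fold change was 1.20 (adjusted p = 0.0452 with the block and 0.357 without it). Mgp, the matrix protein that restrains calcification, measured 261 and 306 FPKM before metastases and 549 and 565 FPKM in M-LMSCs (0.98, adjusted p = 0.0463 with the block). In these 3 genes no M-LMSC value reached down to any other library, although for Mgp the A-LMSC libraries, at 374 and 516 FPKM, came close. Wnt4, a Wnt ligand, measured 2.89 and 2.55 FPKM in PM-LMSCs against 6.66 and 6.45 in M-LMSCs (1.02, adjusted p = 0.0316 with the block). Tgfbi, a matrix protein induced by TGF-beta, measured 0.834 and 0.329 FPKM in PM-LMSCs, and in M-LMSCs 2.799 and 2.86 FPKM (1.29, adjusted p = 0.0405 with the block). In both, the M-LMSC libraries again stood above the 4 others. Tgfbi was below 1 FPKM in those 4 and passed the filter through M-LMSCs alone, as did Ftl2-ps and Slc7a11.

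Of 22 growth factor genes in the table, 18 were tested, with a median of 0.14. With the block, 1 rose (Igfbp2) and 0 fell, against 0.271% and 0.145% of all genes. At an unadjusted p under 0.05, 6 were higher and 1 lower, against 7.13% and 8.93% of all genes. Other members of the binding protein family were also higher without passing. Igfbp3 measured 58.9 and 67.2 FPKM before metastases and 96.0 and 213 FPKM in M-LMSCs, and Igfbp4 13.9 and 13.4 FPKM against 16.9 and 23.6 FPKM. Both had their higher value in M-LMSC replicate 2. Wnt2, a ligand of the lung mesenchyme, was lower, at 3.66 and 3.43 FPKM against 2.01 and 2.54 FPKM (adjusted p = 0.173 with the block). It was set apart by high PM-LMSC values, since A-LMSCs were at 1.45 and 1.14 FPKM.

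Of 27 matrix genes known from metastatic niches, all 27 were tested and 0 were called. With the block, 11 were higher and 0 lower at an unadjusted p under 0.05, against 7.13% and 8.93% of all genes. Both M-LMSC libraries exceeded both PM-LMSC libraries in 11, beside 18% of all genes. They were below them in 3 (Col11a1, Ctgf and Cyr61), beside 16.5% of all genes. The median log2 fold change was 0.24, between 0.15 and 0.33 over 15 alternatives. Dcn, a small proteoglycan that binds collagen, measured 57.6 and 68.6 FPKM in PM-LMSCs against 117 and 141.2 in M-LMSCs (1.02, adjusted p = 0.0648 with the block). Lum, a related proteoglycan, measured 0.815 and 1.03 FPKM in PM-LMSCs, and in M-LMSCs 6.44 and 7.90 FPKM (2.08, adjusted p = 0.0687 with the block). Both stood above all other libraries in M-LMSCs. Col3a1, a fibrillar collagen chain, measured 168 and 230.2 FPKM before metastases and 262 and 473 FPKM in M-LMSCs, and Col12a1, a fibril-associated collagen, 36.1 and 29.0 FPKM against 61.9 and 41.8 FPKM. The crosslinking enzyme gene Loxl2 measured 69.2 and 75.2 FPKM against 102 and 97.2 FPKM. The collagen chain Col1a1 overlapped between the stages, with 761 and 1039 FPKM in PM-LMSCs against 808 and 1472 in M-LMSCs, and so did the glycoprotein Tnc.

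Of 24 matrix protease and inhibitor genes, 22 were tested and 0 were called, with a median of 0.23. At an unadjusted p under 0.05 with the block, 8 were higher and 3 lower, against 7.13% and 8.93% of all genes. Plat, the tissue plasminogen activator, measured 10.4 and 15.8 FPKM in PM-LMSCs, and in M-LMSCs 18.6 and 28.6 FPKM (0.80, adjusted p = 0.0627 with the block). Mmp13, a collagenase, had the opposite order at 12.1 and 8.99 FPKM against 4.34 and 5.93 FPKM (-0.91, adjusted p = 0.0921 with the block). Neither overlapped between stages. Of the 14 fibroblast genes tested, 0 were called, and the median was 0.26. At an unadjusted p under 0.05 with the block, 5 were higher and 1 lower, against the same shares of all genes. Of 11 stromal surface markers 0 were called, with 3 higher at an unadjusted p under 0.05, against 7.13% of all genes. The platelet-derived growth factor receptor genes Pdgfra (6.31 and 6.69 FPKM against 8.60 and 9.50 FPKM) and Pdgfrb (61.1 and 68.9 FPKM against 87.0 and 83.2 FPKM) were set apart by low PM-LMSC values, since A-LMSCs lay near M-LMSCs in both.

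Slc7a11 (ENSMUSG00000027737, chromosome 3 from 49892526 to 50443614) encodes the cystine importer that feeds glutathione synthesis. It measured 0.370 and 0.284 FPKM in A-LMSCs, then 0.388 and 0.321 in PM-LMSCs and 3.25 and 5.06 in M-LMSCs. All 4 earlier libraries lay below 0.4 FPKM, and the mean was 11.7-fold higher in M-LMSCs (a log2 fold change of 1.91 with standard error 0.17, adjusted p = 0.0175 with the block and 0.0542 without it). An annotated transcript of Slc7a11 holds sequence near-identical to tubulin genes, which limits this value. Of 16 genes that ATF4 or NRF2 control in stress, it was the 1 called, and by unadjusted p under 0.05 the higher gene was Slc7a11 alone and the lower gene Phgdh of serine synthesis alone. The median of the 16 was 0.09, so the list as a whole did not follow it.

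Genes that fell were mixed in role. Acta1, the actin of skeletal muscle, measured 181 and 179.8 FPKM in A-LMSCs, then 202 and 156 in PM-LMSCs and 97.4 and 70.6 in M-LMSCs (-1.09 with standard error 0.13, adjusted p = 0.0405 with the block). Cspg4, the NG2 proteoglycan of pericytes and progenitors, measured 13.4 and 14.1 FPKM in A-LMSCs, then 14.7 and 14.9 in PM-LMSCs and 6.22 and 8.59 in M-LMSCs (-0.92 with standard error 0.13, adjusted p = 0.0480 with the block). Each had a shared level in the earlier stages and a lower, non-overlapping level in M-LMSCs. Otub1, a deubiquitinase, measured 30.6 and 39.9 FPKM before metastases and 18.5 and 19.1 FPKM in M-LMSCs (-0.86, adjusted p = 0.0483 with the block). It was lower in M-LMSCs than in any other library. Gm20431 had the second largest called fall (-1.30, adjusted p = 0.0175 with the block), at 22.9 and 21.8 FPKM against 9.63 and 7.46 FPKM, but its exons overlap those of Tmem189 and Ube2v1 on the same strand. Cck, which encodes the peptide cholecystokinin, measured 967 and 861 FPKM in PM-LMSCs, and in M-LMSCs 573 and 258 FPKM and was not called (adjusted p = 0.0967 with the block).

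The other contractile genes as a list did not follow Acta1. Of 13, 12 were tested and 0 were called, with a median of -0.04. At an unadjusted p under 0.05 with the block in limma, 0 were higher and 1 was lower. Both M-LMSC libraries lay below both PM-LMSC libraries in 3 (Acta2, Tagln and Des) and above them in 0, against 16.5% and 18% of all genes. Acta2, smooth muscle actin, measured 5568 and 5804 FPKM before metastases and 5246 and 4986 FPKM in M-LMSCs. Des, the intermediate filament desmin, measured 141.8 and 153 FPKM in A-LMSCs, then 311 and 299 in PM-LMSCs and 147 and 225 in M-LMSCs (adjusted p = 0.117 with the block). Desmin was thus highest in PM-LMSCs. Cspg4 was the 1 called member among 8 pericyte markers, 3 of them tested with a median of -0.24, and it made up 77.4% of their summed level. That median lay between -0.92 and 0.02 and turned sign in 2 of 15 alternatives. The summed level was 17.5 and 18.7 FPKM in PM-LMSCs against 9.44 and 11.7 in M-LMSCs, while the pericyte markers Rgs5, Kcnj8 and Abcc9 stayed below 0.3 FPKM and Higd1b was listed at 0. The part of pericytes in the fall of Cspg4 was not tested.

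Genes of the cell cycle were lower as a group, though 0 of the 20 were called in either direction by limma with the block. Both M-LMSC libraries lay below the other 4 libraries in 16 of the 20, where 11.5% of all genes did so, and 13 of 20 were lower at an unadjusted p under 0.05, where 8.93% of all genes were. The median log2 fold change was -0.36 and lay between -0.56 and -0.24 over 15 alternatives. Within the replicate pairs it was -0.58 and -0.15, so the difference was larger in replicate 1. The summed level was 305 and 339 FPKM in A-LMSCs, then 259.2 and 259.3 in PM-LMSCs and 163 and 212 in M-LMSCs. Sums were thus highest in A-LMSCs and lowest in M-LMSCs, with no overlap between stages. Mki67, the proliferation antigen, measured 4.85 and 3.02 FPKM in PM-LMSCs, and in M-LMSCs 2.24 and 2.11 FPKM (-0.61, adjusted p = 0.124 with the block). Rrm2, a subunit of ribonucleotide reductase, measured 33.5 and 29.5 FPKM before metastases and 19.98 and 18.6 FPKM in M-LMSCs (-0.68, adjusted p = 0.0648 with the block). Mcm5, part of the replicative helicase, measured 20.8 and 25.4 FPKM against 10.4 and 17.5 FPKM (-0.73, adjusted p = 0.0715 with the block). Each had lower values in both M-LMSC libraries than elsewhere. Among 15 tested of 16 cell cycle inhibitors and p53 targets, 0 were called, 1 was higher and 1 lower at an unadjusted p under 0.05, and the median was 0.04. Cdkn1b, the inhibitor p27, was the higher gene, at 3.79 and 3.92 FPKM against 5.24 and 6.11 FPKM.

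**Figure D2:**
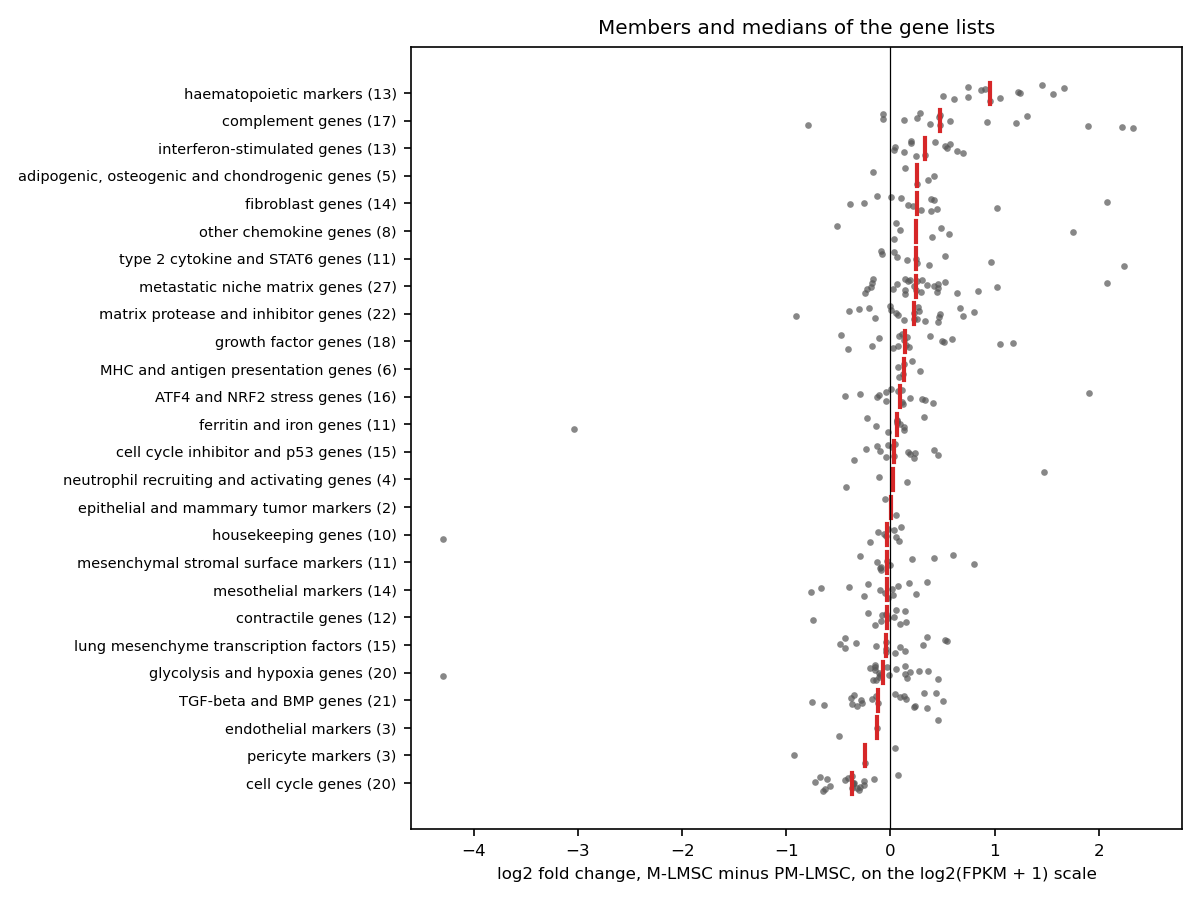
Log2 fold change of M-LMSCs against PM-LMSCs for the tested members (grey points) and the median (red bar) of each of 26 gene lists, with the number tested in parentheses. The haematopoietic markers have the highest median, 0.95, and the cell cycle genes the lowest, -0.36.

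Interferon and antigen presentation genes leaned upward through replicate 2. Of 21 interferon-stimulated genes, 13 were tested, 0 were called, with 6 higher and 0 lower at an unadjusted p under 0.05 (7.13% and 8.93% of all genes), and the median was 0.33. The medians within the replicate pairs were 0.12 and 0.55. Gbp2, an interferon-induced GTPase, measured 36.0 and 35.5 FPKM in PM-LMSCs against 48.0 and 71.1 in M-LMSCs, and Ifit1, an interferon-induced RNA-binding protein, 1.63 and 1.52 FPKM against 2.39 and 3.72 FPKM. M-LMSC replicate 2 was the highest library for both, but for Gbp2 the A-LMSC libraries, at 46.1 and 49.4 FPKM, also lay above PM-LMSCs. Of 15 MHC and antigen presentation genes, 6 were tested, 0 were called, 0 passed an unadjusted p under 0.05, and the median of 0.13 turned to -0.08 without M-LMSC replicate 2.

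In the other lists 0 genes were called except Gapdh. For 15 of 18 lung mesenchyme transcription factors the median was -0.04, with 2 higher and 3 lower at an unadjusted p under 0.05. Tcf21, a factor of lung lipofibroblasts, measured 2.77 and 3.71 FPKM in PM-LMSCs, and in M-LMSCs 3.90 and 6.70 FPKM. Its A-LMSC values, 4.16 and 5.98 FPKM, also lay above PM-LMSCs. For 21 of 25 TGF-beta and BMP genes the median was -0.12, with 4 higher and 7 lower at an unadjusted p under 0.05, and it turned to 0.14 without M-LMSC replicate 2. Inhba, the activin A subunit, measured 33.4 and 21.5 FPKM before metastases and 22.2 and 10.7 FPKM in M-LMSCs, lower within each replicate pair although the stages overlapped. For 5 of 14 adipogenic, osteogenic and chondrogenic genes the median was 0.26, with 2 higher and 0 lower at an unadjusted p under 0.05. For 20 of 21 glycolysis and hypoxia genes the median was -0.07, with 3 higher and 1 lower, and for 10 housekeeping genes it was -0.03, with 0 higher and 1 lower, Gapdh being the lower gene in each.

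Mesothelial markers differed more between replicates than between these stages. Of 15, 14 were tested and 0 were called, with 0 higher and 2 lower at an unadjusted p under 0.05 and a median of -0.03. Their summed level was 269 and 365 FPKM in A-LMSCs, then 504 and 656 in PM-LMSCs and 359 and 749 in M-LMSCs. Upk1b, a uroplakin of mesothelium, made up 33.1% of it, and none of the 15 was at 0 in all 6 libraries. The sum was higher in replicate 2 than in replicate 1 at each stage, and the median turned to 0.44 without M-LMSC replicate 1 and to -0.55 without replicate 2. Krt19, a keratin of simple epithelia and mesothelium, measured 8.09 and 9.28 FPKM in PM-LMSCs against 4.92 and 4.49 in M-LMSCs (adjusted p = 0.0648 with the block). Of 14 endothelial markers, 3 were tested, 0 were called, 1 was higher and 1 lower at an unadjusted p under 0.05, and the median was -0.13. It turned sign in 2 of 14 alternatives.

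Gapdh (ENSMUSG00000057666, chromosome 6 from 125161715 to 125166467), a glycolytic enzyme used as a reference gene, fell to near its A-LMSC level. Its values were 41.3 and 50.8 FPKM in PM-LMSCs, and in M-LMSCs 1.32 and 1.45 FPKM, beside 1.68 and 2.13 FPKM in A-LMSCs. PM-LMSCs were thus the stage that stood apart, by 33.2-fold over M-LMSCs (a log2 fold change of -4.29 with standard error 0.11, adjusted p = 1.11e-05 with the block and 0.000177 without it). Gapdh has near-identical copies, and 10 of them are in the table. Summed with them, the level was 44.1 and 53.2 FPKM before metastases and 3.04 and 3.40 FPKM in M-LMSCs. The annotation holds 127 near-identical genes, so most are absent from the table, and how reads matching several of them were assigned is not given in the sources used here. The part of read assignment in the values of Gapdh was not tested. Another enzyme of the pathway, Pgam1, measured 499 and 533 FPKM in PM-LMSCs against 446 and 456 in M-LMSCs.

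Pianp (ENSMUSG00000030329, chromosome 6 from 124996694 to 125003096), a ligand of an immune receptor, moved the other way and also returned to its A-LMSC level. Its PM-LMSC values were 0.128 and 0.119 FPKM, its M-LMSC values 4.58 and 6.51 FPKM, and its A-LMSC values 5.88 and 5.95 FPKM. Pianp thus passed the filter on the mean through its M-LMSC values alone. With the block and no filter on low values, 2 genes were called, and Pianp was not among them. The log2 fold change was 2.53 (standard error 0.14, adjusted p = 0.00150 with the block and 0.00599 without it), and the call without the block was lost with no filter on low values or without either PM-LMSC library. Eno2, the neuronal enolase, lies near Pianp on the same chromosome and followed it, at 1.65 and 1.77 FPKM in PM-LMSCs, and in M-LMSCs 3.83 and 4.57 FPKM (0.94, adjusted p = 0.0405 with the block).

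Position was shared by part of the called genes, which the choice of members did not use. Chromosome 6 held 9 of the 43 called genes (20.9%) and 468 of the 10320 tested (4.54%). All 9 lay between 122847138 and 136875823, a span of 14 Mb with 70 tested genes, of which 12.9% were called. They were C3ar1, Eno2, Pianp, Gapdh, Clec2d, Magohb, Styk1, Ybx3 and Mgp, 5 of them higher and 4 lower in M-LMSCs. Magohb, a subunit of the exon junction complex, Styk1, a kinase-like receptor, and Ybx3 are neighbors. Ybx3 (chromosome 6 from 131364855 to 131388476), a cold-shock domain protein that binds RNA, measured 75.4 and 78.6 FPKM in A-LMSCs, then 55.3 and 61.8 in PM-LMSCs and 29.7 and 31.1 in M-LMSCs (-0.92, adjusted p = 0.0316 with the block). Styk1 measured 2.35 and 1.90 FPKM before metastases and 0.450 and 0.593 FPKM in M-LMSCs (-1.04, adjusted p = 0.0405 with the block). Neither overlapped between these stages. Of 276 windows of 10 Mb that held a tested gene, 245 held 0 called genes and 2 held 3 or more. The span was chosen after the values were seen, so it is a description without a test.

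**Figure D3:**
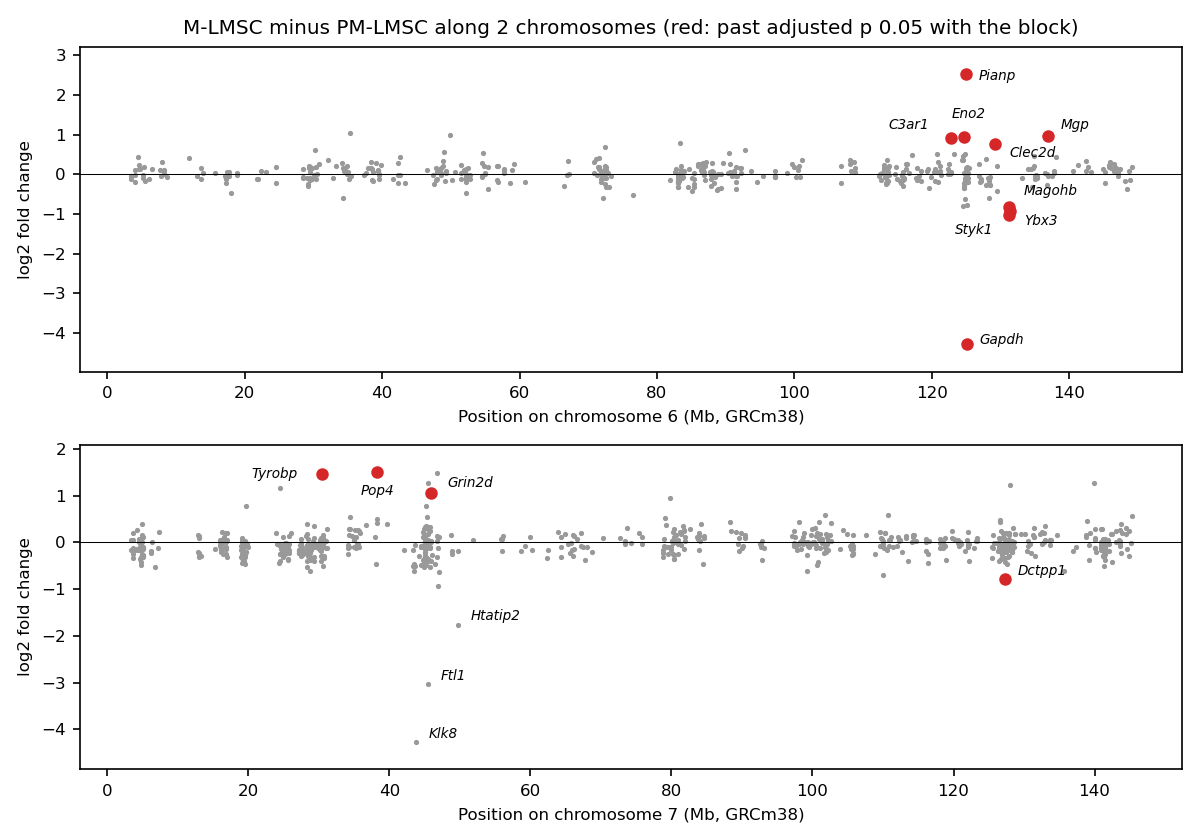
Log2 fold change of M-LMSCs against PM-LMSCs for the tested genes along chromosomes 6 and 7 (GRCm38, in Mb), with genes called with the block in red. The 9 called genes of chromosome 6 lie within 14 Mb, and Klk8, Ftl1 and Htatip2 on chromosome 7 are low but not called.

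On chromosome 7, the fold changes furthest below 0 came from genes that differed between the M-LMSC libraries. Klk8, a serine protease, measured 78.4 and 63.6 FPKM in PM-LMSCs against 0.146 and 11.03 in M-LMSCs (-4.27, adjusted p = 0.0780 with the block). Htatip2, a short-chain dehydrogenase homolog, measured 13.8 and 16.5 FPKM in PM-LMSCs, and in M-LMSCs 1.16 and 9.46 FPKM (-1.76, adjusted p = 0.177 with the block). Ftl1 lies between them. In all 3, M-LMSC replicate 1 was the lowest library and replicate 2 lay between it and the earlier stages. The span from Klk8 to Htatip2 covers 5.98 Mb and 68 tested genes, of which 1 was called with the block, Grin2d.

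Ftl2-ps (ENSMUSG00000082062, chromosome 4 from 125504288 to 125504839), annotated as a processed pseudogene of the ferritin light chain, had the largest rise. It was below 0.6 FPKM in the 4 earlier libraries and measured 2123 and 1046 FPKM in M-LMSCs (a log2 fold change of 9.93 with standard error 0.24, adjusted p = 1.11e-05 with the block and 0.000146 without it). Ftl1, the light chain gene itself, measured 1195 and 1261 FPKM before metastases and 48.0 and 459 FPKM in M-LMSCs (adjusted p = 0.133 with the block). Gm10116 on chromosome 13, another copy, measured 806 and 829 FPKM in PM-LMSCs against 2.88 and 335 in M-LMSCs (adjusted p = 0.212 with the block). Where Ftl2-ps was higher, in M-LMSC replicate 1, Ftl1 and Gm10116 were lower. The sum of the 3 was 2001 and 2091 FPKM in PM-LMSCs, and in M-LMSCs 2174 and 1840.4 FPKM, so the total overlapped between the stages while its division among the copies differed. Ftl1 held 59.7% and 60.3% of that sum in PM-LMSCs and 2.21% and 24.9% in M-LMSCs. Of 12 ferritin and iron genes, 11 were tested, 0 were called, 1 was higher and 1 lower at an unadjusted p under 0.05, and the median was 0.06. The heavy chain Fth1 measured 1637 and 1784 FPKM before metastases and 1904 and 1842 FPKM in M-LMSCs.

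The reference sequences show how alike these copies are. Over 549 coding bases, Ftl2-ps differs from Ftl1 at 7 and Gm10116 at 2. A window of 90 bases in the last coding exon of Ftl1 is shown with the matching bases of the copies. Bases are from GRCm38, 5′ to 3′ on the coding strand. This window was picked for the most differences, first in Ftl2-ps and then in Gm10116. Even so, few bases in it tell the copies apart. Capitals mark bases that differ from Ftl1. The windows are chr7:45458191-45458280 on the minus strand, chr4:125504666-125504755 on the plus strand and chr13:74406982-74407071 on the plus strand.
Ftl1: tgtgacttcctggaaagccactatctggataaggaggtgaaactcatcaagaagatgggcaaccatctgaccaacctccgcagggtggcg
Ftl2-ps: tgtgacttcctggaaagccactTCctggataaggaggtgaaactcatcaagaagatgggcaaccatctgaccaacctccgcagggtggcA
Gm10116: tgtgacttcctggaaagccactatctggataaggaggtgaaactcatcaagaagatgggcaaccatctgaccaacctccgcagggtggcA
Ftl2-ps has 3 differences in this window and Gm10116 has 1. How reads that match several copies were assigned is not given in the sources used here, and the part of read assignment in these values was not tested.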

How the data were processed

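The authors deposited FPKM values for 34745 genes, 1 column per library, made by mapping reads with TopHat2 2.0.9 to mm10 per the labels. The counting program, gene annotation and strandedness are not given in the sources used here. No columns were left out, and the labels gave the stage and replicate of each. Members and lists were chosen with earlier results of these data known. Genes were kept if their 4 M-LMSC and PM-LMSC libraries averaged 1 FPKM or more. Values were analysed as log2(FPKM + 1) with limma 3.58.1 in R 4.3.3 (lmFit, contrasts, eBayes with trend), with 1 mean per stage over all 6 libraries and 3 residual degrees of freedom. The replicate number was then added as a block, which leaves 2. The labels do not say what that number stands for. Across genes, deviations of same-numbered libraries from their stage means correlated at 0.492 between PM-LMSCs and M-LMSCs, 0.316 between A-LMSCs and M-LMSCs and 0.241 between A-LMSCs and PM-LMSCs, so the pairing is read from the data. Benjamini-Hochberg adjustment ran over all 10320 genes, with a threshold of 0.05. Both fits were also run on simulated data in which genes of equal level shared the same spread. That run does not measure how reliable the calls here are. Named genes were every gene called without the block, up to 12 per direction with the largest changes called with it, up to 10 per direction with the largest non-overlapping changes, list members, and C3, C1s1, Il4ra, Il13ra1 and Stat6; the remaining names were chosen after their values were seen.

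Fragment totals were estimated from whole multiples among the lowest values, of which 58.5% to 60.3% lay within 0.1 of a whole number, so counts were not recovered and no count model was used. Precision is therefore given by the 2 libraries per stage. Near-identical genes (at least 200 bases at 95% identity) were found with BLAST 2.17.0 and exon overlaps with bedtools 2.31.1 on the GENCODE annotation of GRCm38, the build of mm10. Tables were made with Python 3.11.15 and pandas 2.3.3. Alternatives were another pseudocount, other filters, quantile and median scaling, the 4 libraries alone, a fold threshold, a correction for GC content and length, and leaving out each library.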

Additional observations from a re-analysis of the deposited data

How the results depend on the processing

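The 3 genes called without the block became 43 with the replicate block and 6 with the block and a correction for GC content and length, and 2 to 26 when each library was left out. The 43 genes called with the block became 22 with a log2 fold change of at least 1, 19 with a pseudocount of 0.1, 2 with no filter on low values, 7 with a mean of at least 5 FPKM, 14 with quantile normalization, 68 with median centring, 5 with the 4 libraries alone, 6 with the GC content and length correction, and 3 to 419 when each library was left out. Where 1 library of a stage is left out, the lone library is assumed to vary like the other groups. Fewer or more genes enter the adjustment under the filters, and the cause of the other differences was not tested. Of 641 values of 41 named genes under the alternatives, 591 kept their direction and their side of the threshold, 43 came to pass it, 3 (all of Pianp) no longer passed it, and 4 turned sign. The last were Il4ra (-0.01 without PM-LMSC replicate 1, -0.19 without M-LMSC replicate 2, and up to 0.50 without M-LMSC replicate 1) and Stat6 (-0.12 and -0.08, and up to 0.19 without PM-LMSC replicate 2), and the cause was not tested. The medians of the haematopoietic, complement, matrix and cell cycle lists kept their sign in 15 of 15 alternatives. With 2 libraries per stage, differences smaller than the spread between replicates could not be resolved, and at about 15.2 to 17.1 megafragments per library values far below 1 FPKM rest on few fragments.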

Other observations

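Most epithelial and mammary tumor markers were near the lower limit in all 6 libraries, with the keratins Krt8 and Krt18 above it, and they are described here because tumor cells of this model are epithelial. Of 22, 17 were below 1 FPKM in all 6 libraries, 2 were tested (Krt8 and Krt18), and 0 were called, with 0 at an unadjusted p under 0.05. Their summed level was 4.01 and 7.34 FPKM in A-LMSCs, then 11.4 and 19.2 in PM-LMSCs and 12.2 and 26.8 in M-LMSCs, and Krt18, a keratin that mesothelium also makes, held 44.8% of it. The sums overlapped between PM-LMSCs and M-LMSCs. Over all 22, most of which did not pass the filter, both M-LMSC libraries exceeded both of the PM stage in 10 and were below them in 0. Among all genes tested, these shares were 18% and 16.5%. Epcam, the epithelial adhesion protein, was listed at 0 in the 4 earlier libraries and measured 0.326 and 0.473 FPKM in M-LMSCs. Cdh1, epithelial cadherin, measured 0.0369 and 0.0114 FPKM in PM-LMSCs, and in M-LMSCs 0.231 and 0.394 FPKM. Both defining markers were thus highest in M-LMSCs at levels under 0.5 FPKM. The milk protein genes Csn2 and Wap were listed at 0 in all 6 libraries, and Csn3 reached 1.22 FPKM in M-LMSC replicate 2. The part of epithelial cells in the results for other genes was not tested.

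Several called genes belong to none of the lists. Pop4, a subunit of RNase P, measured 1.58 and 1.48 FPKM before metastases and 8.04 and 4.76 FPKM in M-LMSCs (a log2 fold change of 1.51, adjusted p = 0.0405 with the block in limma). Dio3, the deiodinase that inactivates thyroid hormone, measured 1.05 and 1.45 FPKM in PM-LMSCs against 3.06 and 3.4995 in M-LMSCs (0.93, adjusted p = 0.0452). Tnfsf8, the ligand of CD30, measured 4.55 and 5.64 FPKM in PM-LMSCs, and in M-LMSCs 9.46 and 10.7 FPKM (0.87, adjusted p = 0.0405). In each, both M-LMSC libraries exceeded the 4 others. Among falls, Mapk13, a p38 kinase, measured 23.6 and 22.5 FPKM before metastases and 13.0 and 13.8 FPKM in M-LMSCs (-0.74, adjusted p = 0.0482). Sprr1a, a cornified envelope protein, was at its highest in PM-LMSCs, at 7.56 and 5.31 FPKM beside 3.07 and 2.77 FPKM in M-LMSCs and 2.74 and 2.34 FPKM in A-LMSCs (-0.91, adjusted p = 0.0476).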
